A study of Mus musculus with 12 samples.

Results

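The genes described here are 36 genes of glycolysis, lactate metabolism and the response to low oxygen, among 20457 genes measured in mouse hematopoietic stem cells. They were chosen by name and pathway: glucose and lactate carriers (4 genes), the enzymes from hexokinase to aldolase (9), the enzymes from triose phosphate to lactate (9), regulators of glycolytic flux (5), pyruvate dehydrogenase and its kinases (5), and hypoxia control (4). All 36 were found, 35 by symbol and Pkm by its identifier, under the older name Pkm2. All 36 also passed the filter on low values.

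The cells came from the bone marrow of C57BL/6 mice. The groups were old (28 months) IL27RA+ cells, old IL27RA− cells, young (2 months) IL27RA+ cells and young IL27RA− cells, sorted for the presence or absence of IL27RA, a subunit of the receptor for the cytokine IL27. Each group had 3 libraries, each made from 50 sorted cells by Smart-Seq2, a full-length cDNA amplification method. Whether replicate libraries came from different mice is not stated, and the p-values therefore measure only the spread among these libraries, part or all of which may be technical. No genetic change or treatment is named. For old IL27RA− replicate 1 the labels conflict: the source names young cells, the title and the stated age old ones, and it was kept as old. The markers that define the sorted stem cells are not stated in the labels.

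Glycolysis turns glucose into pyruvate in the cytosol. Lactate dehydrogenase then converts pyruvate to lactate, or pyruvate dehydrogenase, which is inhibited by the PDK kinases, passes it on to the mitochondria. Hematopoietic stem cells live in a marrow niche that is low in oxygen and are known for a reliance on glycolysis. HIF1A, a transcription factor that is degraded when oxygen is plentiful, is known to raise many of these genes.

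Libraries held 11669083 to 24153167 reads in genes. All 16 stem cell markers checked, among them Procr, Slamf1 and Vwf, had reads in every group. A read in any 1 of a group's 3 libraries counted, so this does not establish cell identity. The lowest limma library weights, which fall as a library departs from its group, were 0.436 for young IL27RA− replicate 2 and 0.544 for old IL27RA− replicate 1. B and plasma cell genes summed to 313700 normalized counts in the second of these (5 of 10 listed genes in the table), against 680 to 1444 in the rest. That sum was almost all 1 gene, Igkc, which averaged 104115 normalized counts over the old IL27RA− group. Ighm and Ebf1 had no read in that group. Levels below are normalized counts, the deposited values taken off the log2 scale. Differences are on the scale of log2(normalized count + 1), with their standard error (SE), from limma across 14803 genes, and a gene is called at a Benjamini-Hochberg adjusted p under 0.05.

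The gene that the age comparison turned on was Ldha, the lactate dehydrogenase subunit that favours lactate formation. The 250 bases before its first RefSeq start and those before the start of Ldhb, its sister subunit, are shown to set the isozymes side by side. Sequences are from RefSeq (GRCm38.p6), 5′ to 3′ along each gene. Capitals mark the cores ACGTG and, likewise, GCGTG, which HIF factors are known to bind, on either strand. Inside the palindrome CACGTG the first of these is present on both strands.
Ldha, chr7:46845554-46845803, plus strand: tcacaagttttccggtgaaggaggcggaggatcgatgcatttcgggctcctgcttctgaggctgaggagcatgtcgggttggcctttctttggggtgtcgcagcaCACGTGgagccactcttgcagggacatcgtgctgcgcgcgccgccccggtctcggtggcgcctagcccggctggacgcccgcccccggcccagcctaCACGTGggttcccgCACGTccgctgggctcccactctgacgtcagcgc
Ldhb, chr6:142507958-142508207, minus strand: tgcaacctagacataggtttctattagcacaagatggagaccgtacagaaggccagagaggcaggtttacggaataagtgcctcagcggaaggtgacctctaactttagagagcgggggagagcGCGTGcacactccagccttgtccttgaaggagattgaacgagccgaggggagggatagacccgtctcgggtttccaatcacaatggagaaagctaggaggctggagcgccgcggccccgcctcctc
The Ldha window held 5 matches to the first core over both strands, counting both strands of 2 palindromes, and the Ldhb window held 1 match to the second. A second Ldha window, chr7:46846832-46847081, held 1 match to the second core and none to the first. Either core stood in 42 of the 54 windows of the 35 members that have one (77.8%), against 12679 of 32851 windows in the table (38.6%). The palindrome stood in 8 of the 54 windows (14.8%), against 6.02% of all windows. The median GC content was 60.4% in the members' windows and 52.4% in all windows, and its part in these shares was not tested. Several members are known HIF targets, and the matches are a description of these letters, not of binding in these cells.

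Levels of the 36 genes were compared per kilobase of exon. The most abundant was Gapdh, with a mean of 8709 normalized counts per kilobase over the 12 libraries, followed by Ldha (3836), Pkm (2894), Pgk1 (1786) and Pgam1 (1547). These are all enzymes of the steps from triose phosphate to lactate. The lowest was Egln3, an oxygen-sensing prolyl hydroxylase, at 11.7 per kilobase. Lengths are of all annotated exons of a gene together, which lowers the value of genes with long rare transcripts. The 36 genes took 0.576% to 0.907% of all normalized counts. Of the 36, 31 reached 10 in every library. Slc16a3, Pfkfb1, Pfkfb4 and Egln3 had at least 1 library without a read. Gapdh, Ldha, Pgk1, Pgam1, Aldoa and Pkm have near-identical pseudogene copies, and the handling of reads shared with those copies is not stated in the labels, so their levels are uncertain to that extent.

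**Figure D1:**
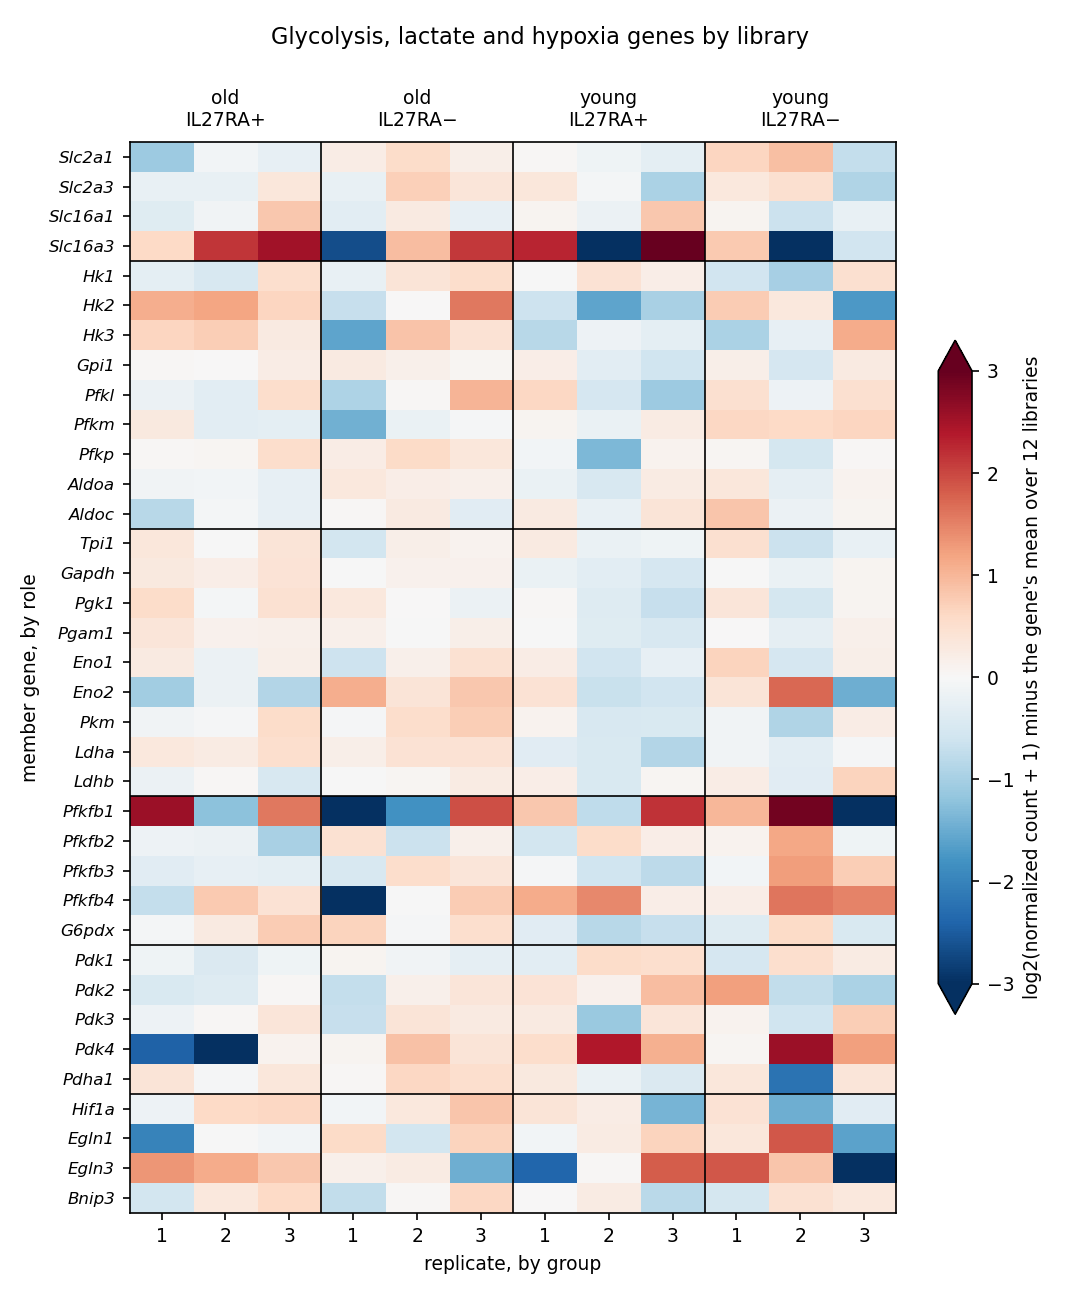
Each row is 1 of the 36 genes, grouped by role, and each column 1 library, with the groups from left to right as old IL27RA+, old IL27RA−, young IL27RA+ and young IL27RA−. Colour is log2(normalized count + 1) minus the gene's mean over 12 libraries, cut at 3 in either direction; the Ldha row is above its mean in all 6 old libraries and below it in all 6 young ones.

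Old cells were set against young cells, averaged over the sorted fractions. Ldha was the 1 member of 36 called, and it rose. Of all 14803 genes tested, 274 were called in this comparison (1.85%), and of those 204 were higher in old cells (1.38%). Ldha (ENSMUSG00000063229) had 15242, 14399 and 17385 normalized counts in old IL27RA+ cells and 13871, 16535 and 16605 in old IL27RA− cells, against 9702, 8947 and 6637 in young IL27RA+ cells and 11394, 9775 and 11867 in young IL27RA− cells. All 6 old libraries lay above all 6 young libraries, which 206 of the tested genes (1.39%) showed in this direction. The difference was 0.71 ± 0.13 (log2, SE; 1.63-fold; 95% interval 0.42 to 0.99; limma adjusted p = 0.0136). In such pools, more cells of a type and more RNA per cell cannot be told apart. Without the 2 libraries that lay farthest from their groups the difference was 0.71, with a limma adjusted p of 0.0286. Without a variance trend in the limma fit it was not called (adjusted p = 0.106).

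Genes of other marker lists also differed with age, in both directions. The name of a list does not establish that such cells were in the pools. The 9 megakaryocyte and platelet markers summed to 11159 to 22622 normalized counts in old libraries, against 3542 to 6619 in young libraries, and 4 of the 9 were called higher in old cells (Selp, Plek, Itgb3 and Vwf). The 10 neutrophil and granule markers summed to 7796 to 13163 in old libraries, against 3647 to 5484 in young libraries. That sum was almost all Prtn3, a granule protease with 7609 to 13151 in old libraries, against 3566 to 5140 in young libraries, which was the 1 called gene; 4 of the 6 tested genes of the list had negative differences, with a median of −0.24. T and NK cell markers (4 of 8 in the table) summed to 802 to 3043 in old libraries, against 68.2 to 537 in young libraries. Klrb1c, an NK cell receptor, made up most of that sum and was the 1 called gene, while 1 of the 4 had a negative difference. Called lower in old cells were Axl of the macrophage list (−1.54 ± 0.34, log2, SE; adjusted p = 0.0330) and Ncaph of the cell cycle list, which had 0, 0 and 1.26 normalized counts in old IL27RA− cells. Of the 24 cell cycle genes 16 had negative differences, and of the 13 macrophage genes 8. Among defining markers, Mpo and Ctsg had no read in either old group or in young IL27RA− cells, Ppbp had none in either IL27RA− group, and Trac had none in either young group. Vwf is in the platelet list and in the stem cell list. The part of these markers in the Ldha difference was not tested.

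Ldhb, the subunit that favours use of lactate, had 1301, 1507 and 1044 normalized counts in old IL27RA+ cells and 1447, 1522 and 1723 in old IL27RA− cells, against 1672, 1061 and 1531 in young IL27RA+ cells and 1711, 1153 and 2325 in young IL27RA− cells. The old and young libraries overlapped. Its difference was −0.11 ± 0.21 (log2, SE), with a 95% interval of −0.56 to 0.33. Per kilobase, Ldha made up 84.7%, 81.9% and 88.8% of the pair in old IL27RA+ cells and 82.0%, 83.8% and 82.1% in old IL27RA− cells, against 73.3%, 80.0% and 67.3% in young IL27RA+ cells and 75.9%, 80.1% and 70.8% in young IL27RA− cells. Every old library thus had a larger Ldha share than every young one, which is a description built on the same Ldha values and was not tested.

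**Figure D2:**
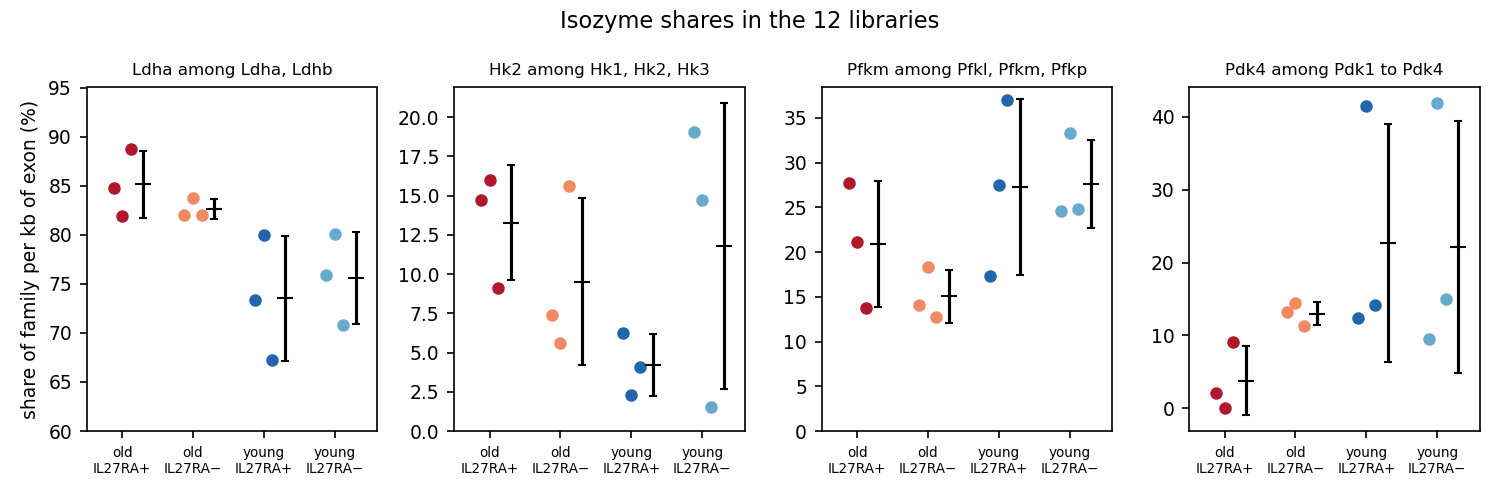
The 4 panels give, for each of the 12 libraries, the share of 1 gene in its isozyme family per kilobase of exon (%), for Ldha, Hk2, Pfkm and Pdk4; bars are the group mean ± SD (n = 3), and the Ldha axis starts at 60. The Ldha shares of old libraries (81.9% to 88.8%) lie above those of young libraries (67.3% to 80.1%), while the other shares overlap between ages.

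The enzymes from triose phosphate to lactate include those of the payoff phase, in which energy is recovered. Of the 9 in this group, Ldha among them, 8 had a positive old minus young difference, against 54.1% of all genes tested. Among the 9, 1 was called, Ldha, against 1.85% of all genes. The median difference of the 9, with Ldha included, was 0.32, against 0.06 over all genes tested. Gapdh, which oxidizes glyceraldehyde 3-phosphate, had 43176, 40520 and 47157 normalized counts in old IL27RA+ cells and 35220, 39057 and 38968 in old IL27RA− cells, against 30884, 28441 and 25033 in young IL27RA+ cells and 35179, 30964 and 37308 in young IL27RA− cells. The old IL27RA+ libraries were the 3 highest and the young IL27RA+ libraries were low, with overlap between the ages in IL27RA− cells. The difference was 0.38 ± 0.12 (log2, SE; adjusted p = 0.124), and it was 0.13 after quantile normalization.

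Pkm, the pyruvate kinase that makes pyruvate and ATP, had 12758, 13542 and 20056 normalized counts in old IL27RA+ cells and 13456, 19728 and 23089 in old IL27RA− cells, against 14832, 9926 and 10088 in young IL27RA+ cells and 12766, 7329 and 16111 in young IL27RA− cells. Young and old libraries overlapped, and the difference of 0.54 ± 0.21 (log2, SE) had an adjusted p of 0.239. Both splice forms of this gene are counted together. Pgam1, a phosphoglycerate mutase, and Pgk1, a phosphoglycerate kinase, differed by 0.32 ± 0.15 and 0.38 ± 0.19. Tpi1, Eno1 and Eno2 had differences of 0.14, 0.09 and 0.05.

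**Figure D3:**
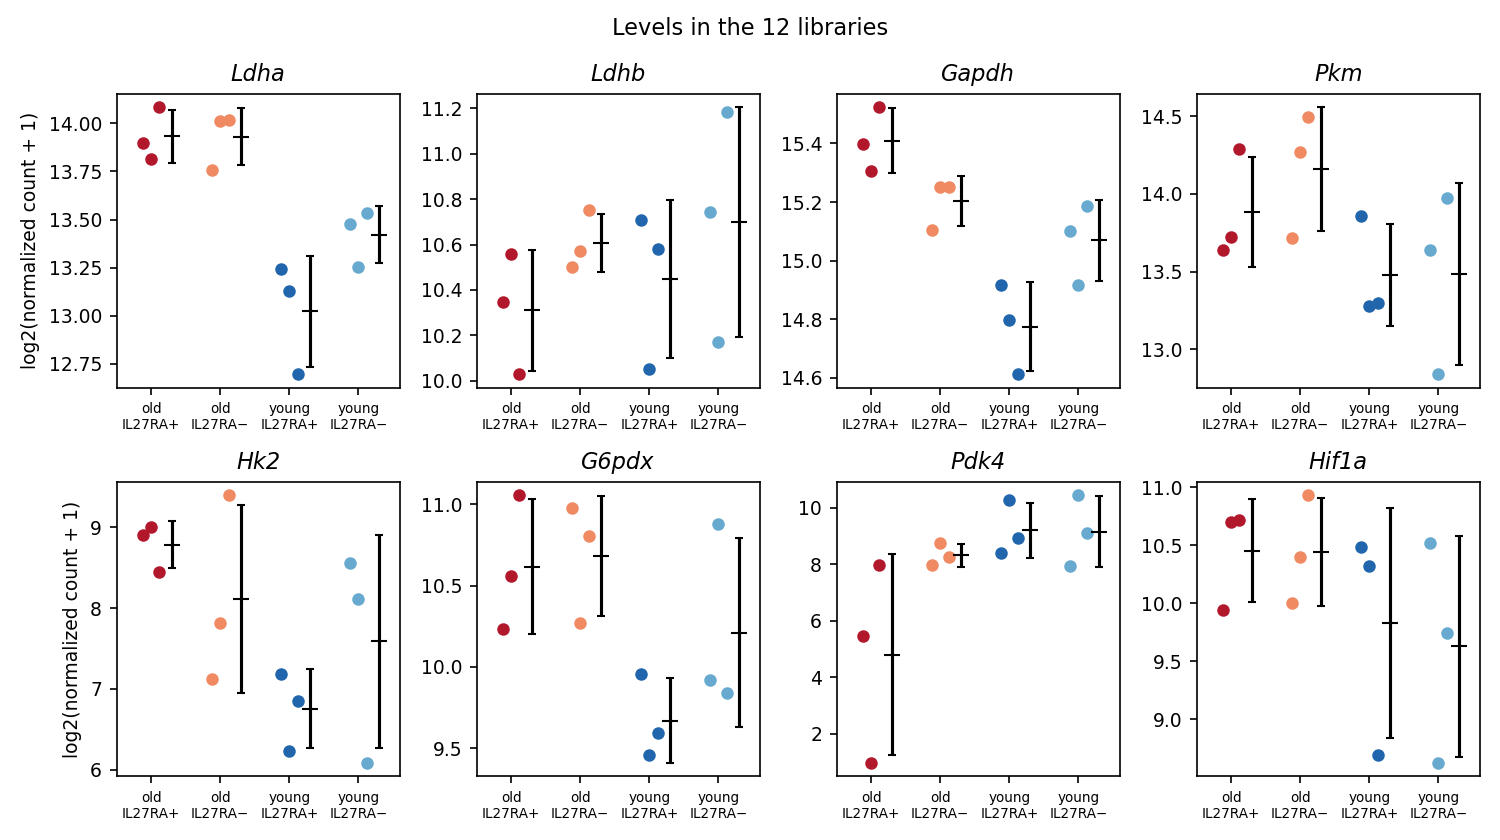
Levels of 8 genes in each library as log2(normalized count + 1), with the group mean ± SD (n = 3) beside the points, and a separate axis range for each gene. The Ldha points of old cells all lie above those of young cells, Ldhb and Hif1a overlap between all groups, and the 2 lowest Pdk4 points are old IL27RA+ libraries.

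The enzymes from hexokinase to aldolase, the investment phase, held no called gene among 9. They had 7 positive differences, against 54.1% of all genes, and a median of 0.15, against 0.06. Hk2, an inducible hexokinase that traps glucose in the cell, had 477, 512 and 349 normalized counts in old IL27RA+ cells and 139, 225 and 673 in old IL27RA− cells, against 145, 73.9 and 114 in young IL27RA+ cells and 377, 276 and 66.9 in young IL27RA− cells. The old IL27RA+ libraries lay above the young IL27RA+ libraries, while the IL27RA− groups overlapped widely. The averaged difference was 1.28 ± 0.52 (log2, SE; adjusted p = 0.262). Hk1, the general hexokinase, was more abundant per kilobase (mean 298 normalized counts per kilobase, and 47.9 for Hk2) and differed by 0.15 ± 0.26.

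Phosphofructokinase, the committed step, has 3 isozymes in the list. Pfkm, the muscle form, had 545, 353 and 360 normalized counts in old IL27RA+ cells and 162, 384 and 431 in old IL27RA− cells, against 471, 386 and 525 in young IL27RA+ cells and 677, 670 and 685 in young IL27RA− cells. The old IL27RA− libraries were all below the young IL27RA− libraries, and the IL27RA+ groups overlapped. Its averaged difference was −0.67 ± 0.31 (log2, SE; adjusted p = 0.322). Pfkp, the platelet form, had 1063, 1079 and 1508 normalized counts in old IL27RA+ cells and 1219, 1552 and 1307 in old IL27RA− cells, against 974, 405 and 1119 in young IL27RA+ cells and 1088, 721 and 1061 in young IL27RA− cells. Old libraries tended to the higher end but overlapped the young ones, and the difference was 0.59 ± 0.26 (adjusted p = 0.300), or 0.36 without young IL27RA+ replicate 2. Pfkl, the liver form, was the most abundant of the 3 per kilobase and differed by 0.06 ± 0.33. The remaining genes of the group, Hk3, Gpi1, Aldoa and Aldoc, had differences of 0.45, 0.26, 0.08 and −0.40.

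The flux regulators comprise the 4 PFKFB enzymes, which make and remove the phosphofructokinase activator fructose 2,6-bisphosphate, and G6pdx, which diverts glucose 6-phosphate into the pentose phosphate pathway. None of the 5 was called. G6pdx had 1201, 1510 and 2123 normalized counts in old IL27RA+ cells and 2010, 1232 and 1784 in old IL27RA− cells, against 994, 702 and 774 in young IL27RA+ cells and 966, 1880 and 915 in young IL27RA− cells. Only young IL27RA− replicate 2, one of the libraries that lay apart, reached into the range of the old libraries. The difference was 0.71 ± 0.24 (log2, SE; adjusted p = 0.166), and 0.87 without that library (adjusted p = 0.0704). Pfkfb2 and Pfkfb3 differed by −0.44 ± 0.34 and −0.16 ± 0.29. Pfkfb1 and Pfkfb4 each had no read in old IL27RA− replicate 1, and their intervals spanned more than 4 log2 units.

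Among pyruvate dehydrogenase and its kinases, Pdk4, the starvation-induced kinase that holds pyruvate back from the mitochondria, had the lowest averaged difference of all 36 genes. It had 42.5, 0.958 and 251 normalized counts in old IL27RA+ cells and 247, 432 and 303 in old IL27RA− cells, against 334, 1243 and 489 in young IL27RA+ cells and 242, 1381 and 548 in young IL27RA− cells. All 3 old IL27RA+ libraries lay below all 3 young IL27RA+ libraries, and the IL27RA− groups overlapped. The averaged difference was −2.62 ± 0.90 (log2, SE; adjusted p = 0.175). Old IL27RA+ replicate 2 held 1 read of this gene, under the floor of 3 reads (2.87 normalized counts), so the fitted difference depends on the pseudocount and is no measure of a fold. Without that library it was −1.66 (adjusted p = 0.226). Pdk1, a kinase known as a HIF1A target, had 1308, 1071 and 1309 normalized counts in old IL27RA+ cells and 1530, 1333 and 1200 in old IL27RA− cells, against 1156, 2106 and 2028 in young IL27RA+ cells and 1008, 2047 and 1708 in young IL27RA− cells. The ages overlapped and the difference was −0.33 ± 0.22 (adjusted p = 0.528). Pdk2, the widely expressed kinase, had 75.3 to 347 normalized counts over the 12 libraries and a difference of −0.34 ± 0.51, or 0.0078 without young IL27RA− replicate 1. Pdk3 differed by 0.07 ± 0.32 and Pdha1, the catalytic subunit of pyruvate dehydrogenase itself, by 0.62 ± 0.37. The Pdha1 value was 0.19 without young IL27RA− replicate 2.

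The carriers and the oxygen-sensing genes held no called gene. Hif1a had 984, 1660 and 1685 normalized counts in old IL27RA+ cells and 1026, 1350 and 1950 in old IL27RA− cells, against 1428, 1276 and 413 in young IL27RA+ cells and 1469, 394 and 855 in young IL27RA− cells. The 2 lowest values belonged to young libraries, but the ages overlapped, and the difference was 0.72 ± 0.36 (log2, SE; adjusted p = 0.374). Each of those 2 libraries carried part of it: the Hif1a difference was 0.43 with the low IL27RA+ library removed and 0.47 with the low IL27RA− library removed. HIF1A is controlled mainly through its protein, which was not measured. Egln1 and Egln3, the hydroxylases that mark HIF1A for degradation, differed by −0.47 ± 0.55 and 0.73 ± 1.14, and Bnip3, a mitophagy gene induced by low oxygen, by 0.10 ± 0.29. The glucose carriers Slc2a1 and Slc2a3 differed by −0.15 ± 0.26 and 0.26 ± 0.28. The monocarboxylate carriers Slc16a1 and Slc16a3, which move lactate across the membrane, differed by 0.03 ± 0.27 and 1.88 ± 1.51. Replicate 2 of both young groups had no read of Slc16a3; its difference was 0.50 with the IL27RA+ one left out and 0.93 with the IL27RA− one left out.

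Over the list, 24 of 36 old minus young differences were positive, against 54.1% of all genes tested, and the median was 0.09, against 0.06 over all genes. At an unadjusted p under 0.05 there were 7 members higher and 2 lower in old cells, against 15.1% of all genes in either direction. The 95% interval lay within ±1 log2 unit for 19 of the 36 genes and reached past that bound for the rest. With each library left out in turn, the sign of 13 of the 36 differences depended on at least 1 library, and the size of 27 moved by over 1.5 times; Ldha was in neither group.

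**Figure D4:**
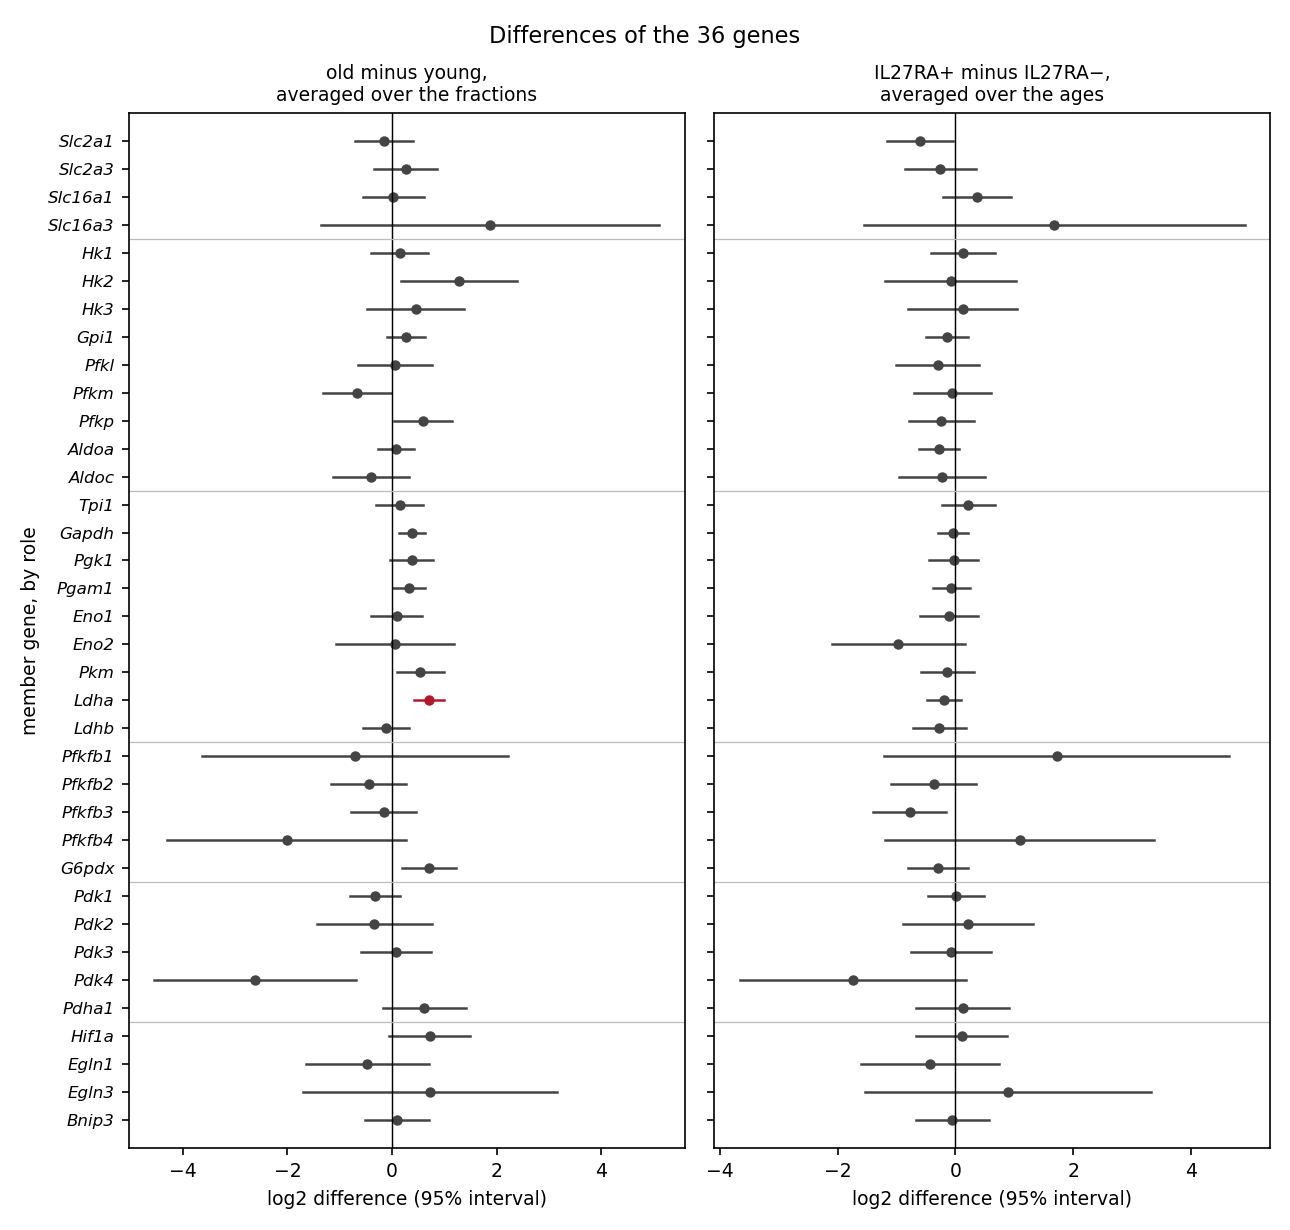
Points are log2 differences from the limma fit and lines their 95% intervals for the 36 genes, grouped by role; the left panel is old minus young and the right panel IL27RA+ minus IL27RA−. Ldha (0.71) is the point drawn in red, the 1 gene called at an adjusted p under 0.05, and the intervals of Slc16a3, Pfkfb1, Pfkfb4, Pdk4 and Egln3 are the widest.

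Within IL27RA+ cells, old against young, no member was called by limma (0 also with voom; 7 at an unadjusted p under 0.05), while 0.426% of all genes were called and 8.88% had an unadjusted p under 0.05. Ldha was closest, at 0.91 ± 0.19 (log2, SE; 1.88-fold; adjusted p = 0.0531). Gapdh differed by 0.64 ± 0.17 (adjusted p = 0.160), G6pdx by 0.94 ± 0.34 (adjusted p = 0.396), Hk2 by 2.03 ± 0.74 (adjusted p = 0.412) and Pdk4 by −4.41 ± 1.27 (adjusted p = 0.230; −2.49 without old IL27RA+ replicate 2). The old libraries lay above the young for 6 members, Hk2, Hk3, Gapdh, Pgam1, Ldha and G6pdx, against a share of 9.09% of all genes, and below them for 2, Pdk2 and Pdk4, against 7.78%.

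Within IL27RA− cells, old against young, no member was called by limma (0 also with voom; 4 at an unadjusted p under 0.05), while 0.669% of all genes were called and 12.5% had an unadjusted p under 0.05. Ldha differed by 0.51 ± 0.19 (log2, SE; adjusted p = 0.284), with the 3 old libraries above the 3 young ones. Pkm differed by 0.67 ± 0.30 (adjusted p = 0.374; 0.35 without young IL27RA− replicate 2) and Pfkm by −1.18 ± 0.43 (adjusted p = 0.279; −0.73 without old IL27RA− replicate 1). Pfkfb4 differed by −3.28 ± 1.51 (adjusted p = 0.392), and by −0.73 without old IL27RA− replicate 1, the library without a read of it. In the same comparison 20 of the 24 cell cycle genes had negative differences, 12 at an unadjusted p under 0.05 and 2 called (Ncaph and Uhrf1), with sums of 5399 to 8819 normalized counts in old IL27RA− libraries, against 14113 to 21549 in young IL27RA− libraries. Their part in these values was not tested.

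The difference between these age effects, IL27RA+ minus IL27RA−, was tested as an interaction. No member was called (0 also with voom, and 0 at an unadjusted p under 0.05), and neither was any other gene (0% of 14803, with 5.19% at an unadjusted p under 0.05). The Ldha interaction was 0.40 ± 0.27 (log2, SE; 95% interval −0.17 to 0.97; 0.24 without young IL27RA+ replicate 3), so a larger age difference in either fraction was not shown. The 4 members with the smallest p were Gapdh (0.50 ± 0.24), Pdk4 (−3.57 ± 1.80; −1.66 without old IL27RA+ replicate 2), Hk1 (−0.88 ± 0.51; −0.57 without young IL27RA− replicate 2) and Pfkm (1.02 ± 0.61; 0.58 without old IL27RA− replicate 1), each with an adjusted p of 0.942.

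IL27RA+ cells were then set against IL27RA− cells, averaged over the ages. No member was called (0 also with voom; 2 at an unadjusted p under 0.05), while 28 genes of the table were (0.189%, with 7.98% at an unadjusted p under 0.05). Of the 36 differences 12 were positive, against 54.2% of all genes, and the median was −0.08, against 0.05. The interval lay within ±1 log2 unit for 22 of the 36. Slc2a1, the main basal glucose carrier, had 1108, 2255 and 1993 normalized counts in old IL27RA+ cells and 2781, 3499 and 2663 in old IL27RA− cells, and 2448, 2150 and 1946 in young IL27RA+ cells, against 3723, 4420 and 1444 in young IL27RA− cells. The old IL27RA+ libraries were all below the old IL27RA− libraries, and the young groups overlapped. The averaged difference was −0.60 ± 0.26 (log2, SE; adjusted p = 0.590).

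Pfkfb3, the PFKFB enzyme that most strongly favours glycolysis, had 466, 498 and 482 normalized counts in old IL27RA+ cells and 428, 857 and 767 in old IL27RA− cells, and 577, 390 and 345 in young IL27RA+ cells, against 565, 1411 and 991 in young IL27RA− cells. IL27RA− replicates 2 and 3 of both ages were the 4 highest libraries and replicate 1 of each was near the IL27RA+ values. The averaged difference was −0.78 ± 0.29 (log2, SE; adjusted p = 0.463). Eno2, the neuronal enolase, and Pdk4 differed by −0.97 ± 0.53 and −1.74 ± 0.90 (−0.59 for Eno2 without young IL27RA− replicate 2, −0.78 for Pdk4 without old IL27RA+ replicate 2).

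Within young cells, IL27RA+ against IL27RA−, no member was called (0 also with voom; 1 at an unadjusted p under 0.05), while 0.0203% of all genes were called and 8.23% had an unadjusted p under 0.05. Pfkfb3 had the smallest p, with a difference of −1.11 ± 0.41 (log2, SE; adjusted p = 0.485). Ldha differed by −0.40 ± 0.19 (adjusted p = 0.606; −0.24 without young IL27RA+ replicate 3), Gapdh by −0.30 ± 0.17 (adjusted p = 0.667) and G6pdx by −0.54 ± 0.34 (−0.21 without young IL27RA− replicate 2). Within old cells, no member was called (0 also with voom; 2 at an unadjusted p under 0.05), with 0.0203% of all genes called and 5.38% at an unadjusted p under 0.05. There Slc2a1 differed by −0.79 ± 0.37 (−0.48 without old IL27RA+ replicate 1), Pdk4 by −3.52 ± 1.27 (−1.61 without old IL27RA+ replicate 2), Eno2 by −1.46 ± 0.74 and Aldoa by −0.36 ± 0.23, while Ldha differed by 0.00 ± 0.19.

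These fractions differed in other markers. The 24 cell cycle genes summed to 21553 to 31353 normalized counts in old IL27RA+ libraries and 5399 to 8819 in old IL27RA− libraries, and to 10757 to 25092 in young IL27RA+ libraries, against 14113 to 21549 in young IL27RA− libraries. All 24 were higher on average in old IL27RA+ than in old IL27RA− cells, 2 of them called (Ncaph and Uhrf1), and Bub1 and Ccnb2 had no read in old IL27RA− cells. The macrophage genes (13 of 14 in the table) summed to 2060 to 9356 in old IL27RA+ libraries and 1003 to 1502 in old IL27RA− libraries, and to 6020 to 9706 in young IL27RA+ libraries, against 1601 to 2318 in young IL27RA− libraries, with 4 called higher in the averaged comparison (Vcam1, C1qb, C1qc and Hmox1). Fcgr1 had no read in either IL27RA− group. Of the 16 stem cell markers 1 was called lower in IL27RA+ cells, Vwf (−1.03 ± 0.16, log2, SE). In that averaged comparison 12 of the 16 had negative differences. At an unadjusted limma p under 0.05, 5 were lower and 0 higher, against 7.98% of all genes in either direction. The 16 summed to 70146 to 75673 in old IL27RA+ libraries and 87236 to 91631 in old IL27RA− libraries. In young cells the sums were 73740 to 79963 in IL27RA+ libraries, against 79798 to 95777 in IL27RA− libraries. Their part in the values of the 36 genes was not tested.

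Neighbouring pathways were read from lists of genes that are not members. Of 15 tested genes of other glycolysis and sugar entry steps, 30 of pyruvate entry and the tricarboxylic acid cycle, 10 of the pentose phosphate pathway and 10 of gluconeogenesis and glycogen, none was called in any of the 7 comparisons, by limma or by voom. At an unadjusted limma p under 0.05 the averaged age comparison held 2, 4, 1 and 2 of them, against 15.1% of all genes, so these counts do not set the lists apart. The smallest p in that comparison belonged to Taldo1, the transaldolase of the pentose phosphate pathway. Taldo1 had 6095 to 8241 normalized counts in old libraries, against 4342 to 5878 in young libraries, with no overlap, and differed by 0.55 ± 0.14 (log2, SE; adjusted p = 0.0562). Bpgm, which makes 2,3-bisphosphoglycerate, differed by 0.94 ± 0.26 (adjusted p = 0.0897), Galm by 0.59 ± 0.25, and the mitochondrial Idh3b and Sdhc by −0.41 ± 0.14 and 0.43 ± 0.17. Pck2 and Gbe1, of gluconeogenesis and glycogen synthesis, differed by −0.55 ± 0.22 and −0.69 ± 0.28, and Prps2 by −0.50 ± 0.26.

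The pyruvate and tricarboxylic acid cycle list had a median old minus young difference of 0.27 in IL27RA+ cells (0.05 over all genes), with 25 of 30 positive. In IL27RA− cells its median was −0.36 (0.04 over all genes), with 11 of 30 positive. The median interaction was 0.52, against 0.01 over all genes, with 2 genes at an unadjusted p under 0.05, Fh1 (0.91 ± 0.31, log2, SE) and Suclg2 (0.77 ± 0.33). In the same age comparisons the cell cycle list had 23 of 24 positive in IL27RA+ cells and 4 of 24 in IL27RA− cells. Its part in these values was not tested.

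Of the list of hypoxia control genes and known HIF targets, 34 of 38 were tested. In the averaged age comparison 1 was called, Ndrg1, a stress- and hypoxia-responsive gene, and it rose. It had 2289, 2025 and 2306 normalized counts in old IL27RA+ cells and 1842, 2400 and 2280 in old IL27RA− cells, against 389, 728 and 537 in young IL27RA+ cells and 399, 173 and 136 in young IL27RA− cells. No old library overlapped a young one, and the difference was 2.70 ± 0.27 (log2, SE; adjusted p = 0.000155). It was also called within IL27RA+ cells (2.04 ± 0.39; adjusted p = 0.0359) and within IL27RA− cells (3.35 ± 0.39; adjusted p = 0.00278). Hif3a, a HIF family member that can oppose HIF1A, differed by −1.34 ± 0.34 (adjusted p = 0.0598). The median of the 34 was 0.12, against 0.06 over all genes. In the averaged comparison of fractions Hmox1, heme oxygenase, was the 1 called gene, higher in IL27RA+ cells by 3.24 ± 0.46 (adjusted p = 0.00888). It was not called with voom, and it is also in the macrophage marker list.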

How the data were processed

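RNA was measured by Smart-Seq2 sequencing of 12 libraries in 4 groups of 3. Per the submitters' processing notes, HTSeq, DESeq2, TopHat2 2.1.1 and FastQC 0.11.5 were used, without a statement of what each did; no source used here names the genome build. The deposited table holds log2 values, which behave as the log2 of 1 plus each read count divided by a size factor: undoing this gave whole reads for 100% of values, within 0.001 reads. One column is deposited with other content in 1 damaged line (Mtbp), which was left out with 15 repeats of genes.

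Normalized counts were obtained by undoing the log2 and subtracting the pseudocount of 1. Genes entered when 3 of 12 libraries reached 10 on the linear scale, which left 14803. The test was limma 3.58.1, run in R 4.3.3, with trended variances and 1 mean per group, with 8 residual and 6.58 prior degrees of freedom and Benjamini-Hochberg adjustment over all tested genes at 0.05, for 7 contrasts. The fit was also run on simulated data as a check of the code, which required only the right direction for most known changes. Its outcome is not given here, and it does not bear on the calls. Amplified reads are not independent molecules, so floors cover counting error only.

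Members, lists and tests were chosen with earlier results of these data known. Members named in the text are any that were called, 4 per comparison by lowest p, and Hif1a, Slc2a1, Hk2, Pfkp, Ldha, Pkm, Pdk1, Pdk2 and Pdk4; of other pathway lists, called genes and, in the averaged age comparison, the 2 with the smallest p, while those of most other comparisons are not printed. Marker genes were named after their values were seen. Further marker lists (erythroid, stroma and endothelium) were summed. Alternatives were other filters, a pseudocount of 10, voom on the recovered reads, quantile normalization, no variance trend, library weights, the compared groups alone, a replicate block and leaving out each library. Promoters are from RefSeq (GRCm38.p6), exon lengths from GENCODE.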

Additional observations from a re-analysis of the deposited data

Results flagged for a closer look

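Gapdh was the 1 member whose sorted fractions lay apart in opposite directions at the 2 ages. How many of all tested genes did so was not counted. In old cells it had 43176, 40520 and 47157 normalized counts in IL27RA+ libraries, all above the 35220, 39057 and 38968 of IL27RA− libraries. In young cells it had 30884, 28441 and 25033 in IL27RA+ libraries, all below the 35179, 30964 and 37308 of IL27RA− libraries. The nearest of these, 30884 and 30964, were almost equal. The difference between the fraction effects was 0.50 ± 0.24 (log2, SE; limma adjusted p = 0.942, and 0.634 to 0.997 over the alternatives), which was not called.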

How the results depend on the processing

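The number of members called in the averaged age comparison was 1 (Ldha) under each alternative run except without a variance trend, where it was 0, and 1 to 1 with each library left out in turn; the limma adjusted p of Ldha ran between 0.0077 and 0.106. In old against young IL27RA+ cells the number was 0, but it was 1 (Ldha) with the stricter filter (adjusted p = 0.0465), a pseudocount of 10 (0.0457), library weights (0.0187) and, chosen after seeing the data, without young IL27RA− replicate 2 and old IL27RA− replicate 1 (0.0462), and 0 to 1 with each library left out (1 without young IL27RA− replicate 2, 0.0415); the cause was not tested. The other 5 comparisons stayed at 0 members under each alternative. No called value changed direction. Averaged age differences that did with a library left out ranged, on the log2 scale, between −0.0092 and 0.36 for Hk1, −0.19 and 0.30 for Pfkl, −0.0076 and 0.18 for Aldoa, −0.070 and 0.24 for Eno1, −0.36 and 0.43 for Eno2, −0.25 and 0.0073 for Ldhb, −0.40 and 0.0035 for Slc2a1, −0.15 and 0.17 for Slc16a1, −0.54 and 0.0078 for Pdk2, −0.16 and 0.25 for Pdk3, −1.70 and 0.16 for Pfkfb1, −0.21 and 1.33 for Egln3, and −0.066 and 0.27 for Bnip3. Without both of the libraries named above, the sign also turned for Aldoa (−0.031), Slc2a1 (0.025), Slc16a1 (−0.017), Pfkfb1 (0.89) and Pfkfb3 (0.15). The Ldha difference between fractions of old cells, 0.00, was −0.085 to 0.060 with a library left out, −0.061 with library weights and −0.085 without both libraries. The cause was not tested. Whole library profiles correlated with r of 0.752 to 0.863 across groups. With each gene's group means removed, same-numbered replicates correlated with r between −0.054 and 0.106 in 18 pairs, which include old against young libraries. The median r of different-numbered pairs was −0.0029. Within an age, same-numbered IL27RA+ and IL27RA− libraries had r of 0.0039 to 0.106, and different-numbered ones −0.068 to 0.038. The labels do not say whether the numbers mark shared mice, and these values do not settle it. With a replicate block the count was 1 in the averaged age comparison, where 307 genes were called in all, and 0 in the others. Slc16a3, Pfkfb1, Pfkfb4 and Egln3 each had at least 1 library without a read, and why was not tested.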

Other observations

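Erythroid genes (10 of 12 in the table) summed to 31613 to 52593 normalized counts in old libraries, against 26431 to 40192 in young libraries, and stroma and endothelium genes (7 of 8) to 734 to 1264 in old libraries, against 618 to 1498 in young libraries; both ranges overlapped. Among the isozymes, Aldoa made up 93.5% to 96.2% of the aldolase pair per kilobase in old libraries, against 91.5% to 94.0% in young libraries. Eno1 made up 84.5% to 97.8% of the enolase pair in old libraries, against 79.2% to 98.3% in young libraries.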
